A study of Mus musculus with 36 samples.

Results

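A set of 9 genes of visceral endoderm transport and lipoprotein biology, of the 25965 genes in the deposited expression table, was followed through differentiation of Xmas mouse embryonic stem cells (mESCs). They were chosen by name: Dab2, Cubn, Amn, Apoa1, Apoe, Apob, Ttr, Afp and Rbp4. All 9 had a line in the table, and 4 of them (Dab2, Amn, Apoe and Rbp4) reached 1 RPM (reads per 1000000 reads of the library) in at least 4 of the 36 libraries and were tested. Every library is labelled as Xmas mESCs, female C57/Bl6 lines made so that Hprt carries GFP on one X chromosome and mCherry on its partner. Whether both X chromosomes were present in every library was not tested. Cells grown in 2i and LIF were weaned in steps into serum medium without LIF (DME HiHi), and RNA was taken daily from day 0 to day 8, with 4 libraries a day: X14 double, X14 single, X18 double and X18 single. X14 and X18 are read here as cell lines. The labels do not explain double and single, and the words serve only as names. Nothing in the labels states that the libraries of a day are separate derivations beyond the line name, so p-values measure the spread between these libraries.

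The visceral endoderm is the outer epithelium of the early mouse egg cylinder. It takes up maternal protein and lipid through large endocytic receptors, and it makes the serum proteins and lipoproteins that the fetal liver later makes. Megalin (Lrp2) and cubilin (Cubn) are its scavenger receptors. Amnionless (Amn) anchors cubilin and carries it to the cell surface, and Dab2 is the clathrin adaptor that binds the tail of megalin. Apoa1, Apoe and Apob are apolipoproteins, Ttr and Rbp4 carry thyroid hormone and retinol in plasma, and Afp is the fetal counterpart of albumin.

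The libraries were shallow. Reads in genes ranged from 612740 to 2445826, and a floor of 3 reads corresponded to 1.04 to 3.90 RPM. Floors and counting intervals cover counting error only. The X14 double library of day 5 was the shallowest and stood apart from its day: short transcripts exceeded long ones there by 1.12 on the log2 scale, against -0.55 to -0.15 in the other 3 libraries of day 5. Its mean correlation with them was 0.896, against 0.933 to 0.938 for the others. Days 0 and 8 were uneven too, with mean correlations within the day of 0.889 to 0.936 and 0.894 to 0.925. The excess of short over long transcripts spanned -0.50 to 1.67 on day 0 (mean 0.71) and -1.09 to 0.60 on day 8 (mean -0.25), so it moved with the comparison of these days. On day 0 of X14 the balance of X-linked to autosomal genes (difference of their median log2 values, each gene relative to its day 0 mean) was -0.78 in the library labelled double and 0.51 in that labelled single, the opposite order to every later day of X14 (0.57 and -0.58 on day 1). The balance differed between labels in the other libraries: on days 1 to 4 it was 0.33 to 0.57 in the 8 double and -0.63 to -0.42 in the 8 single libraries, and on days 5 to 8 -0.02 to 0.33 and -0.57 to -0.21. Values without the X14 libraries of day 0, without the X14 double library of day 5 or with the trend on length removed are given for members where they change a call. For the related lists they are given only in part.

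The RefSeq promoter table (GRCm38.p6) held 12 start sites for 8 of the 9 genes, and Ttr had no entry. The 250 bases before a start were searched on both strands for letters typical of factors that act in endoderm and liver. These were AGATAA for GATA factors, CAAAGT for the core of HNF4, GTTAAT for HNF1, TGTTTAC for FOXA, ACAATG for SOX and TATAAA for the TATA box. Both Dab2 starts, the upstream Apoe start and the Afp start are shown because Dab2 and Apoe are the members with reads to follow, and Afp is the textbook gene of this epithelium that had almost none. Capitals mark the matches, and each sequence runs 5′ to 3′ on the strand of the gene.
Dab2 start 1, chr15:6299539-6299788, plus strand: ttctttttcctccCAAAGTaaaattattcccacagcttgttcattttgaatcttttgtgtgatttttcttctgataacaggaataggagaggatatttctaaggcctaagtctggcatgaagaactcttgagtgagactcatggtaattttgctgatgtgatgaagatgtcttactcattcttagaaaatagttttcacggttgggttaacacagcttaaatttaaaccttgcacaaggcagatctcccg
Dab2 start 2, chr15:6386498-6386747, plus strand: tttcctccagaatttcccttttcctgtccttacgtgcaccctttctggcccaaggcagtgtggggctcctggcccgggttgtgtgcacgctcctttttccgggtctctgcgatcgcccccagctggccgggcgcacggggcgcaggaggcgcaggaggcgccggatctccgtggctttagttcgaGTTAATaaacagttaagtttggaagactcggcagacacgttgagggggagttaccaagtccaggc
Apoe start 1, chr7:19699189-19699438, minus strand: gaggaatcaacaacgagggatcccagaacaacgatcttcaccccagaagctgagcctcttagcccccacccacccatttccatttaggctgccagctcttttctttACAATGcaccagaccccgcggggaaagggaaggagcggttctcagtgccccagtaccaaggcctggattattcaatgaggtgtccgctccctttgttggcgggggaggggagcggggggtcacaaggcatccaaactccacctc
Afp, chr5:90490464-90490713, plus strand: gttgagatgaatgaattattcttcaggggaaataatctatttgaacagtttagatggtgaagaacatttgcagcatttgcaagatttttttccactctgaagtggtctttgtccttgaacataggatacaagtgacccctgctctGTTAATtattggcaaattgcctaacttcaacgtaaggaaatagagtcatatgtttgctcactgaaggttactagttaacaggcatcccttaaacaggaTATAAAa
Start 1 of Dab2 held the HNF4 core 237 bases before the start, and start 2 held the HNF1 letters 65 bases before it. The Afp window held the HNF1 letters 105 bases and TATA 7 bases before the start, and start 1 of Apoe held the SOX letters. Such short words are common: of 32851 promoters, 12.55% held the HNF4 core, 6.43% the HNF1 letters, 10.69% the SOX letters and 12.37% TATA. GATA letters occurred in 9.99% of promoters and FOXA letters in 3.17%. Of the windows not shown, that of Apob and start 2 of Rbp4 and Apoe held TATA, start 1 of Rbp4 the FOXA letters and start 3 of Apoe the HNF1 letters. The windows of Cubn, Amn and Apoa1 held none of the 6 words, and none of the 12 windows held the GATA letters. A match is a description of these letters and not a binding site.

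The 9 genes did not move as a group. Apoe was abundant on every day, Dab2 rose from near 0 to about 30 RPM, Amn and Rbp4 stayed at a few reads, and Cubn, Apoa1, Apob, Afp and Ttr were at or near 0. Per length, Apoe on day 5 averaged 564.9 RPKM (RPM per kilobase of exon) and ranked 50th of 14612 genes tested, whereas Dab2 on day 8 averaged 4.10 RPKM and ranked 8685th. Against day 0, 0 of the 4 genes tested were called by limma on days 1 to 4, beside 0.0684%, 2.96%, 8.89% and 18.6% of all genes tested. Among these days 1 difference, that of Dab2 on day 4, had an unadjusted p under 0.05 and was called by voom on the recovered reads. On day 5, 2 of 4 were called (Dab2 and Apoe), beside 26.8% of all genes tested. On days 6, 7 and 8 Dab2 alone was called, beside 33.4%, 35.4% and 35.0% of all genes. A call here means an adjusted p under 0.05 and a log2 fold change of at least 1.

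**Figure D1:**
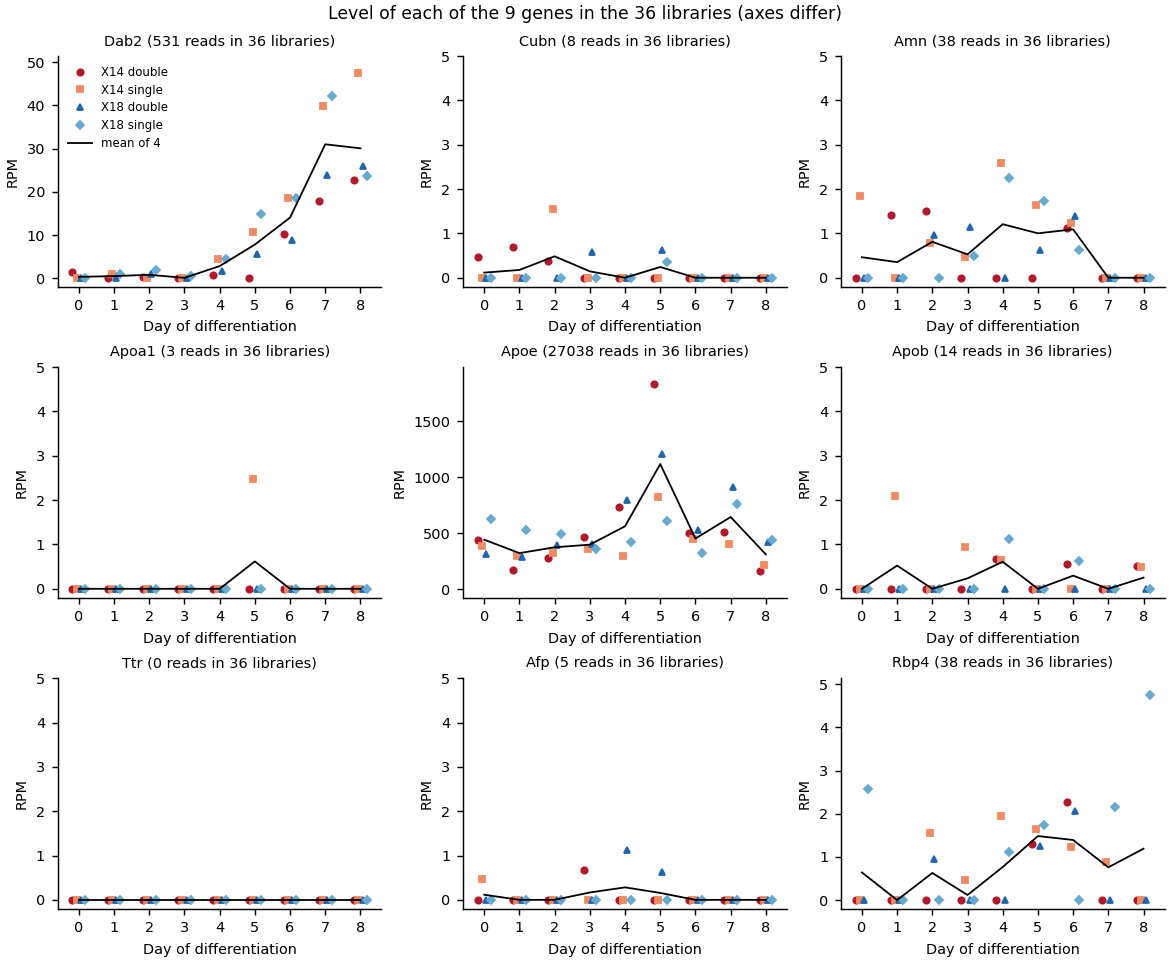
RPM of each of the 9 genes in the 36 libraries by day, with colours and shapes for line and label and a black line for the mean of the 4 libraries of a day; vertical axes differ between panels. Dab2 climbs after day 3, Apoe is high throughout and peaks on day 5 at a mean of 1118 RPM, and the other 7 genes never pass 4.76 RPM.

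Dab2 (chr15:6299788-6440712, plus strand, mm10) was the member that rose. On days 0 to 3 its level was between 0 and 1.99 RPM in the 16 libraries, with 11 reads among them. On day 4 it was 0.672 RPM in X14 double, 4.53 in X14 single, 1.69 in X18 double and 4.48 in X18 single. On day 5 the 4 values, in the same order, were 0, 10.7, 5.62 and 14.9 RPM. All 4 libraries held Dab2 reads on day 4, and 3 of 4 on day 5, the exception being the X14 double library that stood apart.

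On day 6 Dab2 stood at 10.2, 18.5, 8.99 and 18.6 RPM in the same order, and on day 7 at 17.99, 39.8, 24.0 and 42.3 RPM. Day 8 gave 22.8, 47.6, 26.1 and 23.8 RPM. From day 6 every library lay above every library of days 0 to 3.

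The mean of Dab2 was 0.347 ± 0.694 RPM (SD, n = 4) on day 0, and by day 8 it had reached 30.1 ± 11.8 RPM. In limma the log2 fold change against day 0 was 2.83 on day 5 (SE 0.61, adjusted p 0.000462) and 5.16 by day 8 (adjusted p 2.34e-08), with 4.06 and 5.19 on the days between. Without the X14 libraries of day 0 it was 5.09 on day 8. Since day 0 held only 3 reads, all in X14 double, the size of the rise is loose: day 8 exceeded day 0 by 69.3-fold in pooled reads, with a counting interval of 23.4 to 339. Of the daily steps, that from day 3 to day 4 passed the test, at 2.12 (SE 0.61, adjusted p 0.0308), beside 5.03% of all genes. This call was lost without the X14 single, the X18 double or the X18 single libraries, under quantile normalization and with log2(RPM + 1). Against day 0, day 4 was 1.45 higher (adjusted p 0.0768), and with the line and label as a replicate block the same difference had an adjusted p of 0.0418. The other daily steps of Dab2 from day 1 on did not pass, beside 0.0342%, 0.185%, 10.6%, 9.72%, 0.890% and 0.438% of all genes called at these steps in order, and days 7 and 8 differed by -0.03 (adjusted p 0.997).

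Lrp2, the megalin whose tail Dab2 binds, rose as well. Its mean was 4.48 RPM on day 0, 56.2 by day 3 and 335.2 ± 54.5 RPM by day 6, before day 8 gave 107.6 ± 43.4 RPM. On day 6 the 4 libraries stood at 395.2, 354.2, 265.4 and 326.0 RPM, all above the 70.2 to 168.6 RPM of day 8. The log2 fold change of Lrp2 against day 0 was 6.58 on day 6 and 4.87 on day 8 (SE 0.60, adjusted p 5.53e-08), and 4.24 on day 8 with the trend on length removed (adjusted p 6.26e-09). Per length, Lrp2 averaged 20.1 RPKM on day 6 and Dab2 1.92 RPKM, and whether their time courses differ was not tested. The chaperone of Lrp2, Lrpap1, averaged 118.4 ± 19.9 RPM on day 0 and 283.3 ± 47.5 RPM on day 6, 1.26 higher on the log2 scale (adjusted p 0.000246), and returned to 159.2 RPM by day 8. The highest mean of Dab2 fell on day 7, and those of Lrp2 and Lrpap1 on day 6. In the X14 double library of day 5, where Dab2 had no read, Lrp2 stood at 42.9 RPM against 168.0 to 341.6 RPM in the other libraries of that day.

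**Figure D2:**
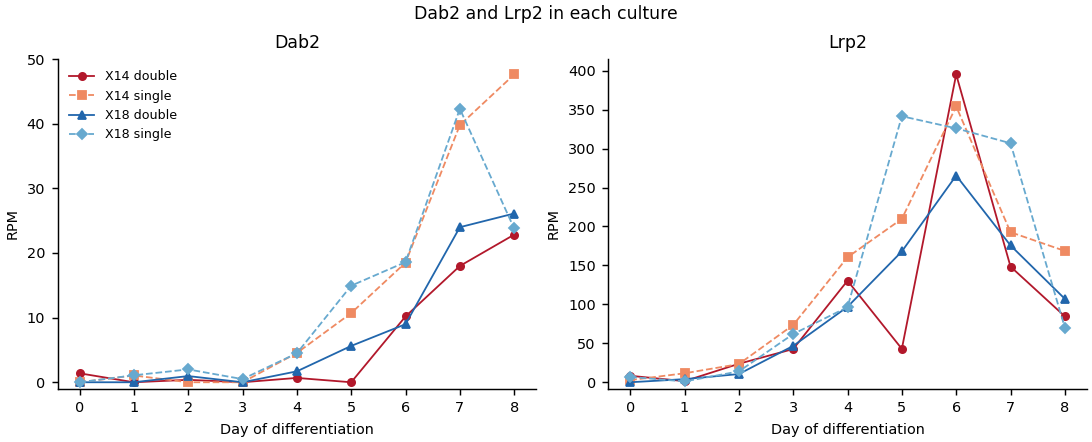
RPM of Dab2 (left) and Lrp2 (right) by day, 1 line per culture; vertical axes differ. Lrp2 climbs after day 1 and is highest on day 6 or day 5, whereas Dab2 climbs after day 3 and is highest on day 7 or 8. Lrp2 drops in X14 double on day 5. Dab2 had 1 read in that culture on day 4 and 0 on day 5, under the floor of 3 reads, so a drop of Dab2 cannot be seen.

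The receptor partners did not follow. Cubn (chr2:13276338-13491924, minus strand) had 8 reads in all 36 libraries, at most 2 in any library, and no read on day 4 or on days 6 to 8. The 0 reads of day 8 allow a level of up to 0.502 RPM over the 4 libraries. Amn (chr12:111271111-111276426, plus strand) had 38 reads, at most 5 in any library. Its mean was 0.463 RPM on day 0 and 1.09 ± 0.33 RPM on day 6, when each library held 1 or 2 reads. On days 7 and 8 Amn had no read in any of the 8 libraries, which allows up to 0.527 and 0.502 RPM. The log2 fold change of Amn on day 8 against day 0 was -0.42 (SE 0.52, adjusted p 0.531). Day 0 held only 4 reads, all in 1 library, so this comparison could not show a fall. Days 4, 5 and 6 held 8, 8 and 6 reads. The step from day 6 to day 7 did not pass in limma (-0.69, SE 0.52, adjusted p 0.696), and days 4 to 6 together were not tested against days 7 and 8. The deposited line of Cubn names Gm13270 as its overlapping feature, and reads of overlapping genes could be split between them.

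Apoe (chr7:19696109-19699166, minus strand), the ligand of several LDL receptor family members, was the only abundant member. Its values on day 0 were 444.6 RPM in X14 double, 387.1 in X14 single, 318.6 in X18 double and 624.0 in X18 single. On day 5 the 4 libraries gave 1835, 823.7, 1203 and 611.9 RPM in the same order, and on day 6 they gave 507.1, 449.3, 532.2 and 326.6 RPM. Each culture except X18 single was higher on day 5 than any library of day 0, and each was lower on day 6 than on day 5.

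Apoe averaged 443.6 ± 130.8 RPM on day 0 and 1118 ± 536.8 RPM on day 5. Its means over the next 3 days were 453.8 ± 91.6, 645.6 ± 231.8 and 312.3 ± 142.6 RPM. Day 5 was higher than day 0 by 1.26 on the log2 scale (SE 0.35, adjusted p 0.00537), and by 1.20 without the X14 libraries of day 0 (adjusted p 0.0284). The fall from day 5 to day 6 was -1.20 (adjusted p 0.0191), beside 9.72% of all genes called in either direction, and day 8 did not pass against day 0 (-0.59, adjusted p 0.172). Without the X14 double library of day 5, the day 5 change was 0.98, under the fold limit (adjusted p 0.0305), and the step to day 6 was -0.92 (adjusted p 0.114). That step was also lost without the X14 single or the X18 double libraries and under quantile normalization. Without the X18 double libraries the day 5 change was 1.04 (adjusted p 0.0792), and with the trend on transcript length removed from each library it was 1.39 (adjusted p 0.000784).

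Apoc1, the neighbour of Apoe on chromosome 7 and a small exchangeable apolipoprotein, was picked for its position after its values were seen. Its means on days 0, 5 and 8 were 49.5, 57.0 ± 51.1 and 18.4 ± 13.4 RPM, with a log2 fold change of -1.57 on day 8 (adjusted p 0.00856). With the trend on length removed this was -0.87, under the fold limit (adjusted p 0.0468). On day 5 it reached 131.3 RPM in X14 double and lay between 20.9 and 49.3 RPM in the other libraries. Its day 5 maximum therefore lay in the library where Apoe was also highest. The genes most like Apoe across the 36 libraries, as a description, were Aldoa (Pearson r 0.852), Ftl1 (0.824) and Gm10116 (0.817). Aldoa, a glycolytic enzyme, averaged 2602 RPM on day 0 and 5027 on day 5, and Ftl1, the ferritin light chain, 1021 and 2853 RPM. Gm10116 averaged 175.3 RPM on day 0 and 495.0 on day 5. For Dab2 the most similar genes were Arap3 (0.962), Ppp4r4 (0.943) and Arhgef5 (0.939). Arap3, a regulator of small GTPases, averaged 0.231 RPM on day 0 and 27.6 on day 8. The 36 points share days and libraries, so these values carry no test.

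**Figure D3:**
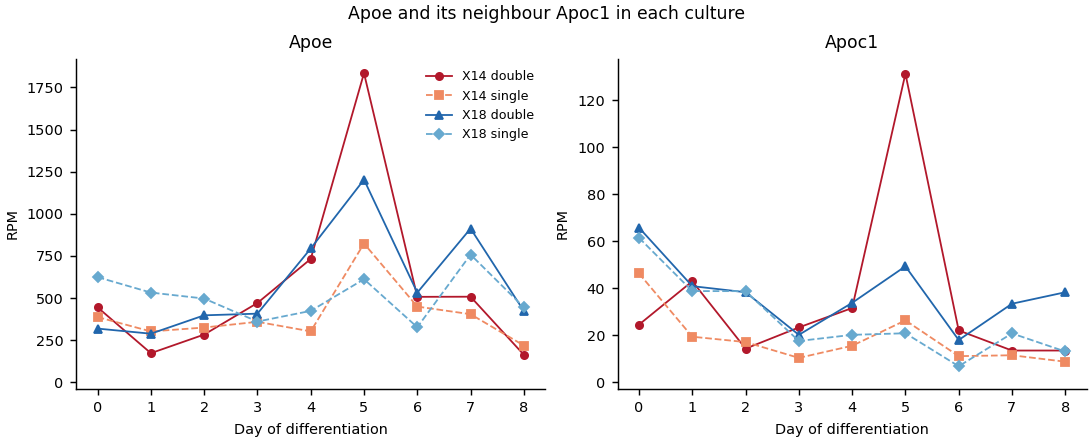
RPM of Apoe (left) and Apoc1 (right) by day, 1 line per culture; vertical axes differ. Apoe has its highest mean on day 5, led by X14 double at 1835 RPM, and Apoc1 reaches 131.3 RPM in the same library.

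The remaining carriers and apolipoproteins were near the floor. Apob (chr12:7977648-8016835), the structural protein of chylomicrons and LDL, had 14 reads, at most 4 in any library. Apoa1 (chr9:46228580-46230466), the main protein of HDL, had 3 reads, all in X14 single on day 5. Afp (chr5:90490714-90508907) had 5 reads, at most 2 in any library, and none from day 6 on. Ttr (chr18:20665250-20674324) had no read in any library, which allows up to 0.0541 RPM over all 36. The deposited line of Ttr names Gm16090 as its overlapping feature.

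Rbp4 (chr19:38116620-38125321, minus strand), the plasma carrier of retinol, had 38 reads, at most 5 in any library. On day 5 all 4 libraries held reads, at 1.30, 1.65, 1.25 and 1.74 RPM. On day 8 only X18 single did, at 4.76 RPM with 4 reads. Its log2 fold change on day 8 was 0.22 (SE 0.64, adjusted p 0.808).

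Line and label were compared over days 5 to 8. Between lines, 0 of the 4 genes tested were called, beside 0.0616% of all genes, and 1 (Apoe, 0.34 higher in X18, SE 0.11, adjusted p 0.432) had an unadjusted p under 0.05. Over days 7 and 8 alone Apoe was 1.04 higher in X18 (adjusted p 0.0167), and the share of all genes called there is not given here. On day 8 the excess of short over long transcripts was -1.09 and -0.68 in X14 and 0.16 and 0.60 in X18. On day 7 it was -0.85 and -0.39 in X14 and -0.26 and -0.27 in X18. Apoe over days 7 and 8 was not fitted with the trend on length removed. Between labels over days 5 to 8, 1 of 4 was called, beside 5.91% of all genes. This was Dab2, lower in double libraries: the 8 double libraries spanned 0 to 26.1 RPM (mean 14.5) and the 8 single libraries 10.7 to 47.6 RPM (mean 27.0). The log2 difference was -1.18 (SE 0.29, adjusted p 0.0144). Each label holds 2 cultures followed over 4 days, and the fit counts the days of a culture as independent, so its p-values are too small if cultures differ from each other throughout. With 1 mean per culture the Dab2 difference was -1.57 in X14 and -0.79 in X18, and an exact permutation test of 2 against 2 cultures cannot go below its two-sided p of 0.333. On day 7, the single library exceeded the double library in both lines, 39.8 against 17.99 RPM in X14 and 42.3 against 24.0 in X18. On day 8 the order held in X14 only.

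The Dab2 difference did not pass without day 5. Without the X14 double library of day 5 it was -0.95 (adjusted p 0.0684), over days 6 to 8 it was -0.80 (adjusted p 0.136), and over days 7 and 8 it was -0.72 (adjusted p 0.315). The Dab2 level was higher in the single than in the double library in 9 of the 10 line and day pairs of days 4 to 8. These pairs repeat the same cultures over days and some hold few reads (7 against 1 in X14 on day 4). Their order therefore carries no test, and how often other genes show it was not counted. Whether the change from days 1 to 3 differed between labels was tested directly and did not pass (-0.78, SE 0.45, adjusted p 0.355).

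Apoe went the other way. It was higher in double libraries over days 5 to 8 by 0.39 (SE 0.11, adjusted p 0.0334), a difference under the fold limit; 13.6% of all genes passed at any fold. With 1 mean per culture it was 0.31 in X14 and 0.47 in X18 (exact permutation p 0.333, the smallest possible). Without the X14 double library of day 5 it was 0.37 (adjusted p 0.0948), and over days 7 and 8 it was 0.03 (adjusted p 0.942). On day 4 the double libraries stood at 732.0 and 794.1 RPM and the single libraries at 302.1 and 423.7 RPM. On day 5 the double libraries, at 1835 and 1203 RPM, lay above the single libraries. With 2 libraries of each label on a day, such an order carries no test. How many of all genes were ordered in this way was not counted. By day 8 the log2 difference was -0.42 in X14 and -0.07 in X18. The change from days 1 to 3 to days 5 to 8 was larger in double libraries by 0.66 (SE 0.17, adjusted p 0.0406), also under the fold limit, beside 4.62% of all genes at any fold and 3.56% past the limit. Related genes and markers of several cell types moved with the label as well, beside 4.06% of all genes called higher and 1.85% called lower in double libraries. Of the lists described below, 3 of 14 lipoprotein genes (Apoc1 by 1.13) and 2 of 6 plasma carriers (Fetub and Gc) were higher in double. Without the X14 double library of day 5 these counts were 1 and 2, and Apoc1 was under the fold limit. No endocytic or retinoid gene was called between labels. Of 7 trophoblast markers tested 5 were higher in double, among them Hand1 and Krt7, and their summed level on day 8 averaged 897.2 RPM in double and 472.2 RPM in single libraries. The streak gene T (-1.18) and Stc1 of the parietal list (-1.28) were lower in double. Higher in double were 2 of 10 parietal (Plat and Snai1), 2 of 6 fibroblast (Pdgfrb and Postn), 2 of 8 pluripotency (Klf4 and Prdm14) and 1 of 10 visceral and primitive endoderm markers (Pdgfra). The median over the pluripotency markers was 0.85, but Pou5f1 (-0.40) and Nanog (-0.44) were lower in double, under the fold limit. The summed level of the pluripotency markers averaged 1423 RPM in double and 1021 RPM in single libraries on day 5. On day 8 the order was reversed, at 382.9 RPM in double and 664.0 RPM in single libraries. Without the X14 double library of day 5, the calls of Plat, Snai1, Stc1 and Postn were lost. Esrrb (1.20, adjusted p 0.00121 in limma) and Tfcp2l1 (1.17, adjusted p 0.00764) were then called higher in double. That made 4 of 8 pluripotency markers higher, beside 3.64% of all genes tested. The X balance moved with the label too. The part of cell composition and of X dosage in the Dab2 and Apoe differences was not tested. In bulk RNA fewer cells of a type and less RNA per cell cannot be told apart.

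**Figure D4:**
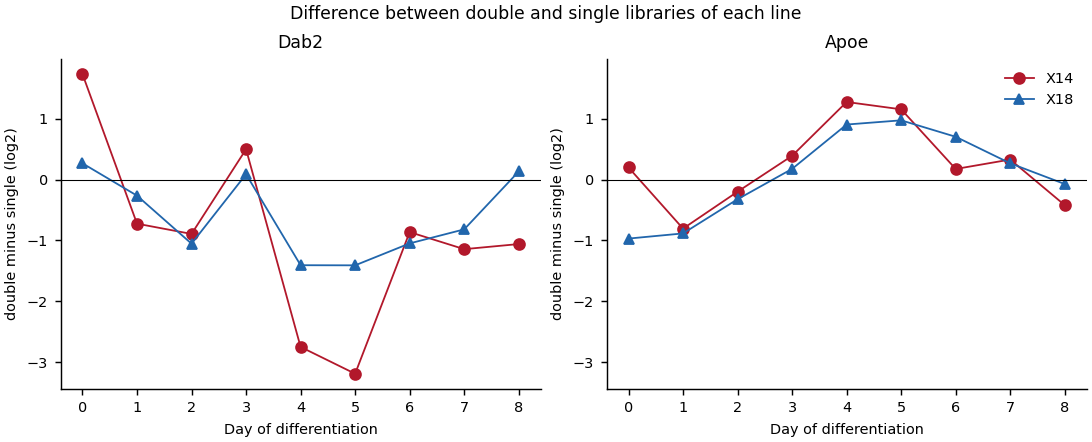
Log2 difference between the double and the single library of each line by day, for Dab2 (left) and Apoe (right); values above 0 are higher in double. In days 4 to 7 Dab2 lies below 0 and Apoe above 0 in both lines, with the lowest Dab2 value of -3.19 in X14 on day 5.

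Related genes were read from named lists. The shares of all genes given with the first list apply to each later list on day 8. Of 15 endocytic receptors and adaptors, 6 rose and 1 fell on day 8 (median log2 fold change 0.57, beside 0.23 over all genes tested, of which 23.9% were called higher and 11.1% lower). Besides Lrp2, Lrp8, a receptor for Apoe, rose by 2.24. Fcgrt, the neonatal Fc receptor, fell from 20.02 to 0.980 RPM (log2 fold change -4.07). Ubiquitous parts of the coat such as Cltc did not pass the test. These counts depended on the X14 libraries of day 0: without them 11 of 15 were higher and 1 lower (median 1.38), Cltc among the 11 (1.01, adjusted p 0.00462), beside 4390 and 1790 of the 14612 genes tested.

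Lipoprotein genes moved in both directions. Of 20 listed, 14 were tested, 3 were higher and 5 lower on day 8 (median 0.04), and 5 had no read in any library. Soat1, which esterifies cholesterol, rose from 21.1 ± 3.1 to 164.2 ± 36.9 RPM, and Dgat2, which makes triglyceride, from 2.88 to 21.0 RPM. Apoa2, an HDL apolipoprotein, fell from 16.7 ± 6.1 to 1.001 ± 0.805 RPM, and Apom fell from 8.34 RPM to 0 reads, at least 18.8-fold lower. Mttp, which loads lipid onto Apob, had means of 4.27, 10.5 and 5.50 RPM on days 0, 5 and 8, and day 5 was higher by 1.45 (adjusted p 0.0287), but by 0.81 without the X14 libraries of day 0 (adjusted p 0.309).

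Plasma carriers were mostly silent or lower. Of 16 listed, 6 were tested and 6 had no read, and 4 were lower and 1 was higher on day 8 (median -1.93). Ttpa, the tocopherol transfer protein, fell from 17.2 to 0.373 RPM, Gc, the vitamin D binding protein, from 15.7 to 1.35 RPM, and Fetub by 2.29 on the log2 scale. Without the X14 libraries of day 0, 2 were lower, and Fetub did not pass (-1.85, adjusted p 0.11). Sepp1, the selenium carrier, rose from 4.04 to 55.1 ± 32.1 RPM (log2 fold change 4.08).

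Among retinoid genes 4 of 9 tested rose and 2 fell on day 8 (median 1.18). Without the X14 libraries of day 0, 4 were higher and 1 was lower (median 0.58). Cyp26a1, which degrades retinoic acid, went from 0 reads on day 0 to 9.58 RPM on day 8, at least 22.4-fold higher. Dhrs3 went from 2.05 to 17.7 RPM and Crabp2 from 2.03 to 8.16 RPM, and Crabp1, an intracellular retinoic acid binder, from 14.9 to 0.121 RPM. Stra6, the receptor for Rbp4, had means of 1.67 and 0.867 RPM on these days and did not pass the test.

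**Figure D5:**
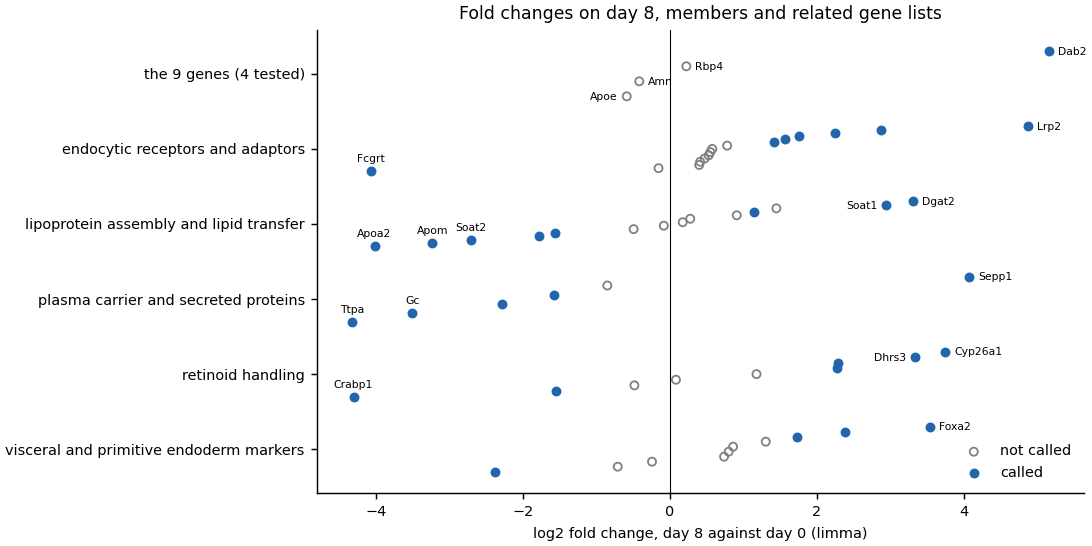
Log2 fold change of day 8 against day 0 (limma) for the 4 members tested and for the tested genes of 5 related lists, 1 point per gene; filled points were called, and not all are named. Dab2 and Lrp2 lie furthest to the right, at 5.16 and 4.87, and the lipoprotein and carrier lists hold called genes on both sides.

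The markers did not bear out a visceral endoderm label for these cultures. Hnf4a, the hepatocyte and visceral endoderm factor, had 9 reads in all, and Ihh had none. Gata6 stood at 0.850 RPM, Gata4 at 0.859 RPM and Sox17 at 1.71 RPM on day 8, and none of these passed the test against day 0. Foxa2 was at 0 reads on day 0 and at 9.51 RPM on day 8, at least 21.6-fold higher, and Cer1 was at least 8.66-fold higher, though Cer1 did not pass without the X14 libraries of day 0 (adjusted p 0.235) or under quantile normalization (adjusted p 0.221), and both also mark definitive endoderm. Of the 10 markers tested, 3 rose (Foxa2, Cer1 and Pdgfra) and Hhex fell on day 8 (median 0.83). Of all genes tested, 23.9% were called higher and 11.1% lower (median 0.23), so these counts were near the shares of all genes. The summed marker level was not highest at the end: it ranged from 43.5 to 93.1 RPM on day 0 and from 156.8 to 314.5 RPM on day 6. On day 8 it ranged from 72.2 to 141.6 RPM. On day 6, 1 of the 10 was called higher and 0 lower, beside 22.4% and 11.0% of all genes tested. This was Lefty1 (log2 fold change 3.01, adjusted p 1.26e-05 in limma). The set is therefore described by its genes and not as a cell type.

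Other cell types express Dab2 or Apoe too, and their markers were measured beside them. The day 8 counts below stand beside 23.9% of all genes tested called higher and 11.1% called lower (median 0.23). Of 10 parietal endoderm markers 7 rose and 1 fell on day 8 (median 2.81), with Col4a1 at 253.7 RPM and Col4a2 at 210.7 RPM among those that rose. The sum ranged from 432.7 to 807.4 RPM on day 0 and 1021 to 1641 RPM on day 8. Not all of the list rose: Lama1 held 143 reads on day 0 and 15 on day 8. Sparc held 3820 and 3227 reads on these days, and Thbd 3 and 9. Of 7 trophoblast markers tested 5 rose (median 4.17), and their sum ranged from 80.2 to 137.1 RPM on day 0 and 447.3 to 907.5 RPM on day 8. Of 8 macrophage markers, 5 had no read in any library, Ptprc among them, while Csf1r and Cd68 rose to 34.4 and 28.0 RPM (median 2.39). Fibroblast markers rose in 4 of 6 tested (median 2.19), from a sum of 0.854 to 14.4 RPM on day 0 to 51.2 to 92.3 RPM on day 8, and Prrx1 had no read. Definitive endoderm and streak markers rose in 2 of 6 and fell in 1 (median 1.31), with a sum of 5.14 to 17.9 RPM on day 0 and 30.5 to 258.0 RPM on day 8. All 8 pluripotency markers fell (median -3.18). Without the X14 libraries of day 0 the counts higher and lower were 6 and 0 for parietal, 1 and 0 for streak and 3 and 0 for fibroblast markers, and those of the trophoblast, macrophage and pluripotency lists were as before. With the trend on length removed, 6 parietal markers were higher and 1 lower, and 2 streak markers were higher and 0 lower. Which cells carried Dab2 or Apoe was not tested.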

How the data were processed

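RNA-seq was performed on 36 libraries, 4 for each of 9 days. Per the labels and methods, single-end reads of 75 bp went through trim_galore and were mapped to mm10 (TopHat2 2.0.12 in the submitters' processing notes, tophat or hisat2 in the methods) and quantified in SeqMonk. The annotation version and use of strand are not given in the sources used here. The values deposited by the authors are log2 values, named log CPM in the deposit and log2 RPM in the methods. They are read here as log2 RPKM, with 0.9 read written for genes without reads, because the lowest values of a library differ between genes with exon length. This is an inference, on which every RPM and read count rests. Whole reads were recovered for 100% of values (tolerance 0.02 read) and gave RPM and depth. Genes with 1 RPM in at least 4 of 36 libraries (14612) were fitted by day with limma 3.58.1 (R 4.3.3, eBayes with trend) on the deposited log2 values, and Benjamini-Hochberg adjustment ran over all genes. Lines and labels were compared with day-specific terms. The script was tested on simulated data with independent libraries. The members, lists and named genes (for each list, up to 4 called genes by the size of their day 8 change, plus Lrp2, Lrpap1, Mttp and Stra6) were chosen with earlier results of these data known, and some listed genes are not reported by name here. Replicate numbers stand for the same line and label on every day. Deviations of same-numbered libraries correlated at -0.578 to 0.402 against day 0 and at 0.012 to 0.518 against the day before. Ratios of reads have exact 95% intervals. Alternatives were other filters, scalings, pseudocounts, tests, late periods and left-out libraries.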

Additional observations from a re-analysis of the deposited data

Results flagged for a closer look

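Dixon's test was applied to Dab2 and Apoe within each day (18 groups of 4 libraries), and 3 had a library far from the others. Its usual rate of about 1 in 20 is for continuous values and does not hold where most libraries have no read. All were highest values of Dab2. On day 0 the X14 double library stood at 1.39 RPM and the other 3 at 0, and on day 3 X18 single stood at 0.488 RPM and the other 3 at 0. These flags rest on 3 reads and 1 read. With the other 3 libraries at 0 the ratio is 1 whatever the count, so they carry no test. On day 8 X14 single stood at 47.6 RPM, with the others between 22.8 and 26.1 RPM.

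The change of Apoe from days 1 to 3 to days 5 to 8 differed between labels in a direct test, by 0.66 on the log2 scale (SE 0.17, adjusted p 0.0406 in limma), higher in double. The mean went from 336.6 to 760.5 RPM in double libraries and from 395.9 to 504.6 RPM in single libraries. Without the X14 double library of day 5 the difference was 0.64 (adjusted p 0.0777). With 1 mean per culture it was 0.51 in X14 and 0.81 in X18, for which the exact permutation p is 0.333, the smallest possible.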

How the results depend on the processing

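Replicates 1 to 4 are X14 double, X14 single, X18 double and X18 single. Dab2 was called higher on days 5 to 8 under every alternative in which it was tested (log2 fold change 2.21 to 3.86 on day 5 and 4.58 to 5.80 on day 8). Dab2 averages under 10 RPM, and where that mean was required it was not tested: the number of members called was 1 on day 5, 0 on days 6, 7 and 8, and 0 from day 3 to day 4. On day 4 against day 0 no member was called, but 1 was with voom on recovered reads, with the replicate block and without the X14 double library of day 5, and 0 to 1 with a replicate left out. The block changed no other call. On day 5, 2 members were called, 1 without the X14 double library of day 5 and 1 to 2 with a replicate left out. On day 6 the range with a replicate left out was 1 to 2. From day 3 to day 4 the count was 0 under quantile normalization and with log2(RPM + 1), and 0 to 1 with a replicate left out. From day 4 to day 5 it was 0, but 1 with 75th percentile scaling and without the X14 double library of day 5, and 0 to 1 with a replicate left out. From day 5 to day 6 it was 0 under quantile normalization and without that library, and 0 to 1 with a replicate left out. From day 7 to day 8 it was 1 under quantile normalization. Over days 7 and 8, 1 member was called between lines (Apoe, 1.04 higher in X18, adjusted p 0.0167) and 0 between labels. Of the 14612 genes tested 777 were called between labels over these days, and the share between lines is not given here. The count of members called between labels was 0 over days 6 to 8 and without the X14 double library of day 5. It was 2 with no minimum fold change. For the change between periods it was 1 with no minimum fold change. Changes of sign concerned values that did not pass the test: Dab2 between lines was -0.076 over days 7 and 8 and -0.080 over days 6 to 8, Amn on day 8 was 0.14 without replicate 2, and Rbp4 on day 8 was -0.42 under quantile normalization, -0.001 to 0.376 with a replicate left out and -0.72 without the X14 libraries of day 0. The cause was not tested. Across all genes, day 8 had 3485 higher and 1629 lower calls, and 2432 and 2393 under quantile normalization, which moved the median of all genes from 0.23 to -0.09. The X14 day 0, X14 day 5, days 6 to 8 and transcript length alternatives were chosen after seeing the data. A fit on 1 mean per culture was also tried after seeing the data and is not used, because on simulated data it made more false calls than its limit allows. The check of the reported label fit simulated independent libraries, so it does not cover lasting differences between cultures. Depth limits the 7 members with few reads, for which a change below the floor of 3 reads cannot be seen.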
